A study of Mus musculus with 4 samples.

Results

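Claudins are membrane proteins that seal the gap between neighbouring epithelial cells, and 10 of their genes (Cldn1, Cldn2, Cldn3, Cldn4, Cldn5, Cldn7, Cldn8, Cldn12, Cldn15 and Cldn23) were followed in mouse small intestine and colon. They were taken by their symbols from 21000 condensed genes, in which all overlapping exons of a gene are merged into exon blocks. RNA-Seq reads of 4 libraries were counted on these blocks. Each library came from whole frozen tissue of C57BL/6 mice aged 9 to 10 weeks, with no further treatment given, and the methods of the study describe jejunum and distal colon. The small intestine cDNA fragmented and the colon cDNA fragmented library were made from polyadenylated RNA by the SMART protocol, in which full-length cDNA is amplified and then broken, so that strand is lost. The small intestine rRNA-depleted and the colon rRNA-depleted library were made with a whole transcriptome kit that breaks RNA directly and keeps strand. Kit and RNA are given here as their labels state them, since the methods describe polyadenylated RNA and also longer reads for the fragmented RNA of the study, so these may be other libraries than those described there. Each tissue had a single library in each protocol. Replicate error is therefore unknown and no test was run, and the number of mice behind a library is not given in the sources used here.

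Claudins span the membrane several times, and their first extracellular loop meets that of a claudin of the next cell in the tight junction. This loop carries a stretch shared by nearly all members, the claudin signature, with a tryptophan and a pair of cysteines. Some members, among them Cldn2 and Cldn15, form charge-selective pores for small cations, while others, among them Cldn1, Cldn3, Cldn4, Cldn5 and Cldn8, tighten the barrier. In the gut, the proximal parts are leakier to sodium and water than the distal colon. The roles of Cldn7, Cldn12 and Cldn23 are less uniform, and these genes were kept as a group of their own.

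The coding DNA of the signature was read from the mm9 assembly for 4 members, both pore formers, Cldn8 of the barrier formers and Cldn7 of the remaining group. It lies in the coding part of an exon in each gene. Capitals mark the tryptophan codon and both cysteine codons.
Cldn2, chrX:136343391-136343438, plus strand: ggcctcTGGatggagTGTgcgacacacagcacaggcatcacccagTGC
Cldn15, chr5:137444115-137444162, plus strand: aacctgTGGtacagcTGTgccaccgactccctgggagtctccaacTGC
Cldn8, chr16:88563089-88563136, minus strand: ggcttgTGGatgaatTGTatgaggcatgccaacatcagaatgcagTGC
Cldn7, chr11:69779573-69779620, plus strand: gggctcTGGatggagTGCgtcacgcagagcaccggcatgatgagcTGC
All 10 members held this pattern of codons. It ran over 48 bases in 9 of them and over 45 bases in Cldn12.

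The cDNA fragmented libraries held 22484041 uniquely placed reads from small intestine and 24798934 from colon, and the rRNA-depleted ones held 2035386 and 3478387, so that intervals of the latter are wider. Paneth cell markers summed to 45126 and 2822 RPKM (reads per kilobase of exon blocks per 1000000 uniquely placed reads) in the small intestine libraries and to 52.2 and 50.0 in the colon libraries, and all 10 epithelial markers were present in every library. The libraries stood apart in ways other than tissue. Xist had 1751 reads in the small intestine cDNA fragmented library and between 5 and 31 in the other libraries, whereas 4 Y-linked genes had 0 to 19 reads each in the former and 40 to 1191 in the latter, which sets this library apart in the sex of its mice, although the study speaks of tissues of the same individuals. Cldn2 is the X-linked member. The 8 pancreatic acinar markers summed to 0.827 and 280 RPKM in small intestine and colon by cDNA fragmentation and to 2376 and 7.66 in the rRNA-depleted libraries, the opposite direction. The 7 smooth muscle markers summed to 305 and 1276 RPKM and to 247 and 2436 RPKM in the same order. The 3 adipocyte markers summed to 19.2 and 153 RPKM and to 14.7 and 129 RPKM. The 6 immune markers went the other way, at 69.9 and 38.5 RPKM and at 29.1 and 24.0 RPKM. The part of these differences in the claudin values was not tested. The median ratio of colon to small intestine over all genes with at least 20 reads was 1.32 in each protocol (log2 0.40), so a ratio close to this value was that of a typical gene.

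Reads of the 10 claudins made up 0.185% of all unique placements for small intestine and 0.180% for colon by cDNA fragmentation and 0.140% and 0.142% in the rRNA-depleted pair. Their summed RPKM was 1093 for small intestine and 1030 for colon by cDNA fragmentation, and to 900 and 765 in the rRNA-depleted libraries. Per 1000000 reads, the total of small intestine was thus 1.06 and 1.18 times that of colon, but with median-of-ratios scaling, which sets the typical gene alike in both tissues, it was 1.40 and 1.49 times. Shares within the total do not depend on this scaling. The pore-forming members Cldn2 and Cldn15 gave 51.3% of the claudin RPKM in small intestine and 37.2% in colon by cDNA fragmentation, but 27.0% and 28.2% in the rRNA-depleted libraries. The 5 barrier-forming members gave 8.08% and 19.8% by cDNA fragmentation and 20.7% and 41.7% in the rRNA-depleted libraries, so their share was higher in colon by either protocol. The remaining 3 members gave 40.7% and 43.0%, and 52.4% and 30.1%, with most of this from Cldn7.

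**Figure D1:**
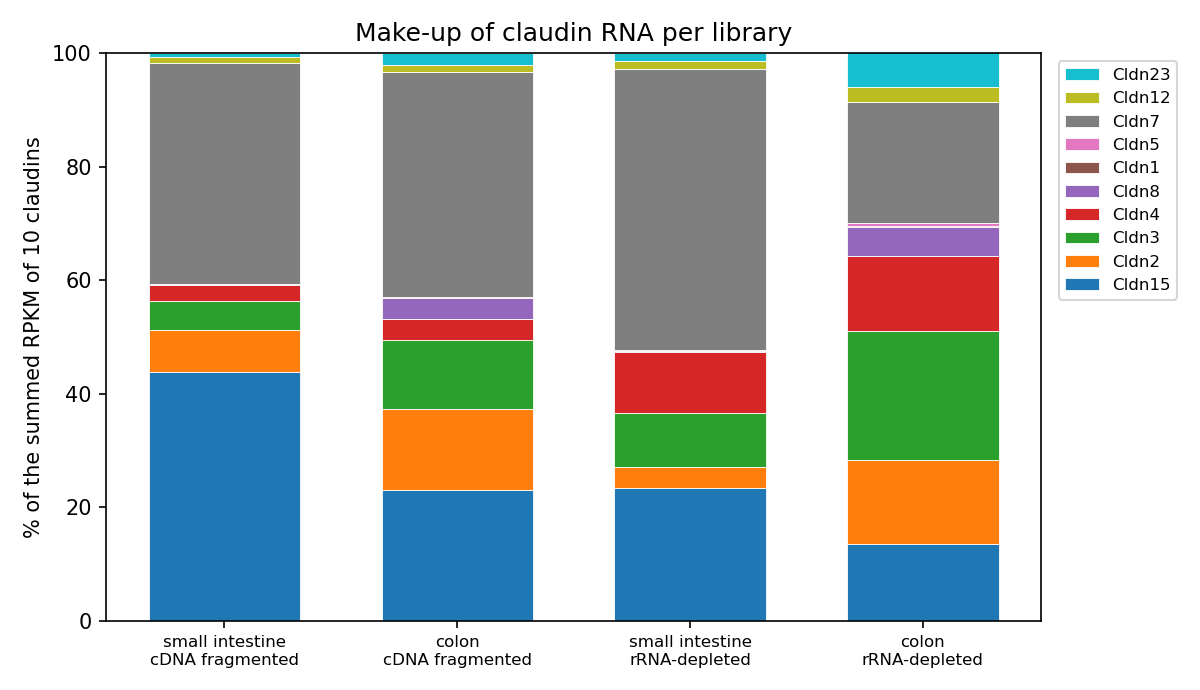
Share of each claudin in the summed RPKM of the 10 genes (y axis, %), with 1 bar per library. Cldn15 and Cldn7 fill most of the small intestine bars, and the segments of Cldn3, Cldn4 and Cldn8 together are larger in the colon bar of each protocol.

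Levels ranged from 0.275 to 479 RPKM within the cDNA fragmented small intestine library, where the order from high to low was Cldn15, Cldn7, Cldn2, Cldn3, Cldn4, Cldn12, Cldn23, Cldn8, Cldn5 and Cldn1, and only the intervals of Cldn5 and Cldn1 overlapped between neighbours. In the cDNA fragmented colon library, the order was Cldn7, Cldn15, Cldn2, Cldn3, Cldn4, Cldn8, Cldn23, Cldn12, Cldn5 and Cldn1, and the levels of Cldn4 and Cldn8 were within each other's intervals. Cldn7 was the highest member in the rRNA-depleted small intestine library, followed by Cldn15. In the rRNA-depleted colon library, Cldn3 and Cldn7 were highest and their intervals overlapped, as did those of Cldn2 and Cldn15 and of Cldn15 and Cldn4. Cldn5 and Cldn1 had the lowest values in each library, though the intervals of Cldn8 and Cldn5 overlapped in the rRNA-depleted small intestine library. All intervals are at the 95% level (exact Poisson for levels, exact conditional binomial for ratios) and account for the counting of reads alone, as reads of amplified cDNA may stem from the same molecule.

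**Figure D2:**
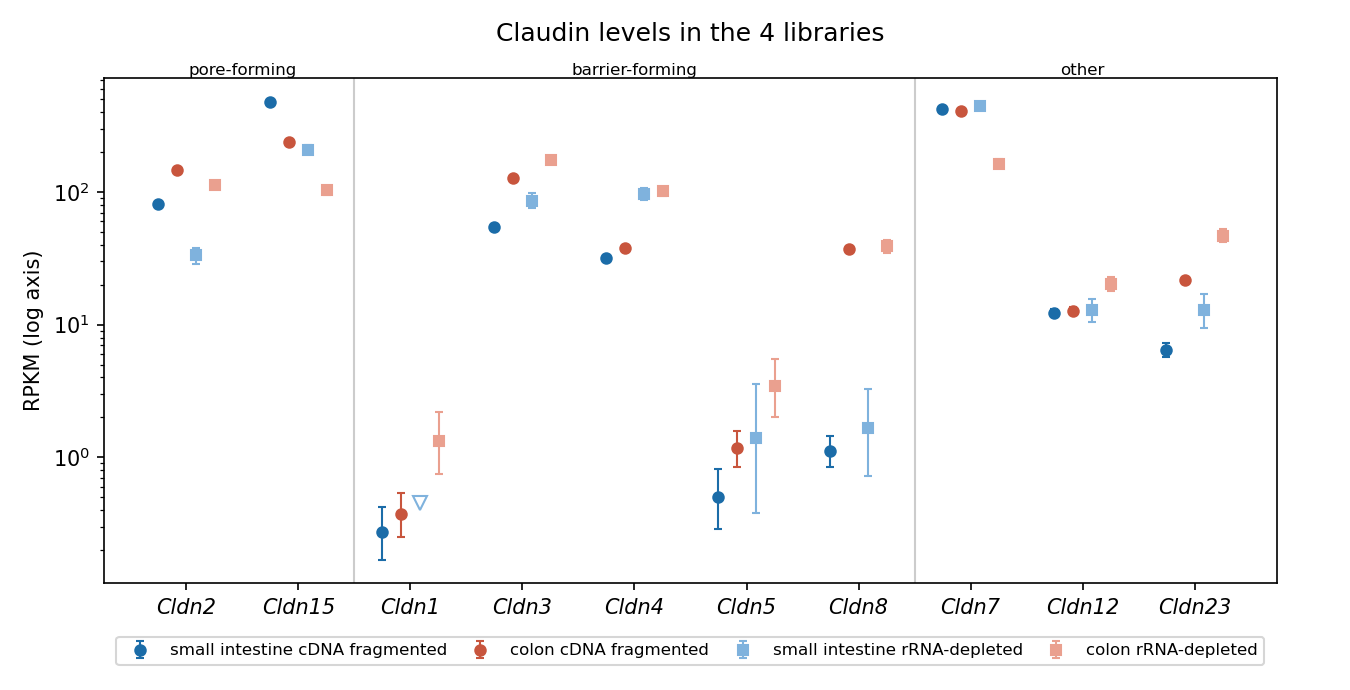
RPKM of each claudin (y axis, log scale) in the 4 libraries, with exact Poisson 95% intervals where larger than the symbol, grouped by role. The open triangle stands for Cldn1 in the rRNA-depleted small intestine library, which had 0 reads and is drawn at the value of 3 reads, 0.455 RPKM.

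Among the pore-forming members, Cldn15 was higher in small intestine and Cldn2 higher in colon by either protocol. Cldn15 (chromosome 5 of mm9, 137443739 to 137451710, plus strand, 5 exon blocks) is required for the paracellular supply of sodium to the lumen of the small intestine. Its level was 479 RPKM in small intestine against 237 in colon by cDNA fragmentation, and 209 and 103 in the rRNA-depleted libraries. Both small intestine values thus lay above the colon value of the same protocol. The small intestine to colon ratio was 2.02 (1.97 to 2.07) by cDNA fragmentation and 2.03 (1.83 to 2.26) in the rRNA-depleted libraries. Of all genes tested, 9.47% and 11.8% had a lower colon to small intestine ratio. By start points in place of reads, that is, each position and strand counted once, Cldn15 was 1.16-fold higher in small intestine by cDNA fragmentation. This measure has a ceiling, since 2942 and 2665 of 3692 positions on both strands were already taken in small intestine and colon, and it cannot show the full ratio of such a gene.

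Cldn2 (chromosome X, 136335367 to 136345923, plus strand, 2 exon blocks) forms a pore for cations and water and is known from the proliferating crypt region. Its level was 81.2 RPKM in small intestine against 146 in colon by cDNA fragmentation, and 33.3 and 113 in the rRNA-depleted libraries. Colon was higher in each protocol, and the rRNA-depleted small intestine library had the lowest value. The colon to small intestine ratio was 1.80 (1.74 to 1.86) by cDNA fragmentation and 3.39 (2.93 to 3.95) in the rRNA-depleted libraries, and these intervals do not overlap. Against the median ratio of all genes, the ratios were 1.36 and 2.56 times as large. Start points gave 1.24 by cDNA fragmentation, where 3148 and 4092 of 6084 positions on both strands were taken in small intestine and colon. In the rRNA-depleted libraries, they gave 2.06.

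The level of Cldn2 relative to Cldn15, which does not depend on the scaling of libraries, was 0.169 (0.164 to 0.175) in small intestine and 0.617 (0.601 to 0.634) in colon by cDNA fragmentation. In the rRNA-depleted libraries, it was 0.159 (0.136 to 0.185) and 1.10 (0.997 to 1.21). The small intestine values of the protocols had overlapping intervals, and the colon values did not. In every library except the rRNA-depleted colon one, where the interval includes 1, Cldn15 was the more abundant pore former per length.

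Among the barrier-forming members with reads in both tissues, Cldn8 had the largest ratio. Cldn8 (chromosome 16, 88561071 to 88563428, minus strand, 1 exon block) is a barrier claudin of tight epithelia such as distal colon and distal nephron. It had 59 reads (1.11 RPKM) in small intestine and 2183 (37.3 RPKM) in colon by cDNA fragmentation, and 8 (1.67 RPKM) and 320 (39.0 RPKM) in the rRNA-depleted libraries. Both colon values lay far above both small intestine values, and the levels of the protocols in the same tissue had overlapping intervals. The colon to small intestine ratio was 33.5 (25.9 to 44.2) by cDNA fragmentation and 23.4 (11.7 to 54.7) in the rRNA-depleted libraries. Of all genes tested, 98.9% and 98.7% had a lower ratio. With start points, the ratio in the rRNA-depleted libraries was 13.8.

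Cldn3 (chromosome 5, 135462084 to 135463460, plus strand, 1 exon block), which tightens the junction to ions, reached 54.6 RPKM in small intestine against 127 in colon by cDNA fragmentation, and 86.3 and 173 in the rRNA-depleted libraries. Colon was higher by either protocol, with ratios of 2.33 (2.20 to 2.47) and 2.01 (1.74 to 2.33), and with start points of 1.45 and 1.24. The block runs 118 bases past the end of the gene in GENCODE M1, and these bases count in its length but held 1 read in all, in the rRNA-depleted colon library. Cldn4 (chromosome 5, 135420993 to 135422804, minus strand, 1 exon block), a neighbour of Cldn3 on the chromosome that lowers sodium permeability, had 31.8 and 37.8 RPKM by cDNA fragmentation and 96.5 and 102 in the rRNA-depleted libraries. Its levels differed more between protocols than between tissues. The colon to small intestine ratio of Cldn4 was 1.19 (1.10 to 1.28) by cDNA fragmentation and 1.05 (0.923 to 1.20) in the rRNA-depleted libraries, which is 0.898 and 0.795 times the median ratio of all genes. The direction of Cldn4 therefore depended on scaling: with libraries scaled by median-of-ratios size factors, colon was lower, at 0.897 and 0.830, and with start points it was lower in the rRNA-depleted libraries (0.881).

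Cldn3 and Cldn4 share a stretch of 114 coding bases in which 6 bases differ, and it is shown because reads from it can be placed on either gene. Capitals mark the bases that differ, and the stretch includes the signature described above.
Cldn3, chr5:135462449-135462562, plus strand: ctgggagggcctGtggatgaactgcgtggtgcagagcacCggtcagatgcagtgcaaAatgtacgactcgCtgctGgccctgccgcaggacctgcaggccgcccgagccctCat
Cldn4, chr5:135422365-135422478, minus strand: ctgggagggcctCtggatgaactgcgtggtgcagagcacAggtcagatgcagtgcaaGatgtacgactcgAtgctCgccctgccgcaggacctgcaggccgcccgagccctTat
Of 35-base windows, 24 in each gene matched the other gene with at most 1 mismatch, which is 1.79% of the windows of Cldn3 and 1.35% of those of Cldn4. No such window was found in the other 8 members. Reads wholly inside the stretch made up 0 to 3.61% of the reads of Cldn3 and 1.31% to 2.81% of those of Cldn4, so the levels of both genes rested mainly on other sequence. The last 40 bases of the annotated Cldn3 gene also overlap the antisense transcript Wbscr25. By cDNA fragmentation, where strand is lost, this overlap held 10 reads of small intestine and 47 of colon, all placed antisense to Cldn3. With rRNA depletion, which keeps strand, it held 0 and 1, and the 1 read was sense.

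The lowest members were also barrier-forming. Cldn5 (chromosome 16, 18776940 to 18778353, plus strand, 1 exon block), the main claudin of blood vessel endothelium, had 16 reads (0.503 RPKM) in small intestine and 41 (1.17 RPKM) in colon by cDNA fragmentation, and 4 (1.39 RPKM) and 17 (3.46 RPKM) in the rRNA-depleted libraries. The colon to small intestine ratio was 2.32 (1.28 to 4.44) and 2.49 (0.811 to 10.2), and the latter interval includes 1. With at most 1 mismatch per read, the latter ratio was 6.72. The 9 endothelial markers summed to 31.2 and 33.6 RPKM by cDNA fragmentation and to 24.4 and 44.7 in the rRNA-depleted libraries, with none at 0, which gives ratios of 1.07 and 1.84. Relative to this sum, Cldn5 was 2.16 and 1.35 times as high in colon. The 4 lymphatic endothelial markers had summed ratios of 1.19 and 4.34, and the latter lies above the Cldn5 ratio. In whole tissue, a change in the number of cells of a type and a change in RNA per cell cannot be told apart.

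Cldn1 (chromosome 16, 26356737 to 26371925, minus strand, 4 exon blocks), the main barrier claudin of skin, had 20 reads (0.275 RPKM) in small intestine and 30 (0.374 RPKM) in colon by cDNA fragmentation. The ratio of 1.36 (0.747 to 2.53) was within counting error of 1. In the rRNA-depleted libraries, small intestine had 0 reads, and a floor of 3 reads puts its level at up to 0.455 RPKM, while colon had 15 reads (1.33 RPKM). Measured against that floor, the colon level was at least 2.93-fold higher, whereas the exact interval of the ratio, in which the error of the 15 reads counts as well, begins at 2.10.

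Of the other members, Cldn7 was the most abundant and the least alike between protocols. Cldn7 (chromosome 11, 69779003 to 69781380, plus strand, 4 exon blocks) is also found along the lateral membrane and is needed for the integrity of the gut epithelium. Its level was 425 RPKM in small intestine against 408 in colon by cDNA fragmentation, and 446 and 163 in the rRNA-depleted libraries. The small intestine values of both protocols and the colon value by cDNA fragmentation were close, and the rRNA-depleted colon library was low. The colon to small intestine ratio was 0.960 (0.936 to 0.985) by cDNA fragmentation and 0.366 (0.333 to 0.403) in the rRNA-depleted libraries, and these intervals do not overlap. By cDNA fragmentation, the direction turned with the reads used, to 1.04 with at most 1 mismatch per read and to 1.08 on the last block. Against the median ratio of all genes, however, the ratios were 0.726 and 0.277 times as large. Median-of-ratios scaling gave 0.725 and 0.289, lower in colon in both protocols. Along the gene, the first to the last block of the rRNA-depleted libraries reached 349, 816, 225 and 508 RPKM in small intestine. The colon values were 119, 181, 156 and 244, each lower, although the third block rested on 39 and 46 reads. By cDNA fragmentation, the blocks reached 313, 543, 576 and 552 RPKM in small intestine and 271, 490, 583 and 596 in colon. The blocks nearer the 5' end were thus lower in colon and the last was higher, while the third was nearly alike. No intervals were computed for single blocks.

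Cldn23 (chromosome 8, 36887766 to 36889613, minus strand, 1 exon block), a member described in the luminal gut epithelium, reached 6.45 RPKM in small intestine against 21.6 in colon by cDNA fragmentation, and 12.8 and 47.0 in the rRNA-depleted libraries. The colon to small intestine ratio was 3.34 (2.92 to 3.84) and 3.68 (2.71 to 5.10), so both protocols gave overlapping intervals, and start points gave 2.12 in the latter. Cldn12 (chromosome 5, 5505015 to 5514976, minus strand, 4 exon blocks), which has been linked to paracellular calcium transport, had 12.3 and 12.7 RPKM by cDNA fragmentation and 12.8 and 20.4 in the rRNA-depleted libraries. Of these values, only that of the rRNA-depleted colon library stood apart. The ratio was 1.03 (0.950 to 1.12) by cDNA fragmentation and 1.59 (1.26 to 2.02) in the rRNA-depleted libraries, on either side of the median ratio of all genes. By cDNA fragmentation, the Cldn12 ratio was 0.982 with at most 1 mismatch and 0.780 with median-of-ratios scaling, so its direction was not fixed.

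**Figure D3:**
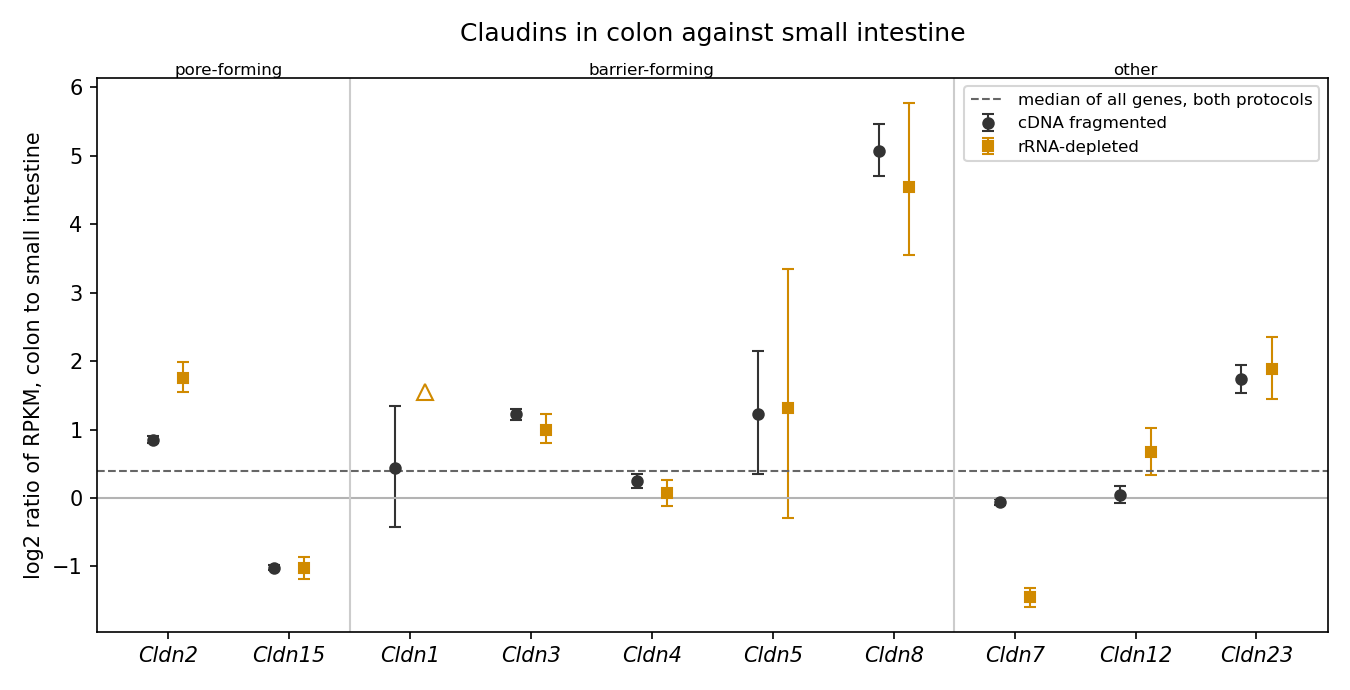
Log2 ratio of RPKM in colon to small intestine (y axis) for each claudin in the cDNA fragmented and the rRNA-depleted pair of libraries, with exact 95% counting intervals, and the median of all genes (0.40 in both) as a dashed line. Cldn8 stands highest and Cldn15 lies at -1.02 in both protocols, while the protocols differ for Cldn2, Cldn7 and Cldn12. The open triangle is Cldn1, which had 0 reads in the rRNA-depleted small intestine library. It is drawn at the ratio of 2.93 against a floor of 3 reads, above the exact lower limit of 2.10.

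Members were also counted by fixed rules and set beside all genes. By the 3-fold rule of the study, a value must reach 3 times the sum of the other value and a penalty of 1 RPKM. By cDNA fragmentation, 1 of 10 members (Cldn8) was then higher in colon, where 3.18% of 16582 genes were. In small intestine, 0 members were higher, where 2.72% of genes were. In the rRNA-depleted libraries, 3 members (Cldn2, Cldn8 and Cldn23) were higher in colon, against 6.57% of 15169 genes, and 0 in small intestine, against 3.73%. By a 2-fold rule without a penalty, among genes with at least 20 reads over both libraries, 4 of 10 members (Cldn3, Cldn5, Cldn8 and Cldn23) were higher in colon by cDNA fragmentation, where 26.2% of 14292 genes were, and 1 (Cldn15) in small intestine, where 9.66% were. In the rRNA-depleted libraries, 5 of 9 members tested (Cldn2, Cldn3, Cldn5, Cldn8 and Cldn23) were higher in colon, against 27.9% of 11979 genes, and 2 (Cldn7 and Cldn15) in small intestine, against 12.3%. With so few members, a single gene moves these shares by 10 percentage points or more. The call of Cldn5 ended in both protocols where at least 100 reads were asked for. With median-of-ratios scaling, the 2-fold rule gave 2 members higher in colon (15.9% of all genes) and 1 in small intestine (15.6%) by cDNA fragmentation, and 3 (18.9%) and 2 (17.9%) in the rRNA-depleted libraries. The members lost in colon were Cldn3 and Cldn5, in both protocols. The 3-fold rule then gave 1 (Cldn8; 2.10% of all genes) and 0 (3.55%) by cDNA fragmentation. It gave Cldn8 alone in colon (4.21%) and Cldn7 in small intestine (5.04%) in the rRNA-depleted libraries, so the calls of Cldn2 and Cldn23 ended. Both also ended with start points, where Cldn1 and Cldn8 passed, and that of Cldn2 ended with at most 1 mismatch. Cldn1 had 0 and 15 counts both by reads and by start points. Start points were scaled to their own smaller total, so the penalty of 1 weighed less for Cldn1. The share of all genes was not counted for these settings. With a penalty of 0.1 RPKM, Cldn23 passed as well by cDNA fragmentation (2 members, beside 8.23% of all genes). In the rRNA-depleted libraries, this penalty gave 4 members higher in colon (Cldn1, Cldn2, Cldn8 and Cldn23), beside 16.3% of all genes. The median ratio of the members was 1.57 by cDNA fragmentation, beside 1.32 for all genes with at least 20 reads. It was 2.01 in the rRNA-depleted libraries over the 9 members with at least 20 reads, beside 1.32 for all such genes, and 2.23 over all 10 with Cldn1 at the bound of 2.93 from the floor.

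Claudins of the gut lie mainly in epithelium, so their ratios were set against those of the epithelial markers. These summed to 16460 RPKM in small intestine and 13883 in colon by cDNA fragmentation, a colon to small intestine ratio of 0.843, and to 5946 and 8568 in the rRNA-depleted libraries, a ratio of 1.44. The sum rests on few genes, and the ratios of single markers ran from 0.273 to 3.30 by cDNA fragmentation and from 0.178 to 3.07 in the rRNA-depleted libraries, with medians of 1.29 and 1.22. Relative to the sum, Cldn8 was 39.8 and 16.2 times as high in colon, Cldn23 3.96 and 2.55 times, Cldn2 2.14 and 2.36 times, and Cldn3 2.76 and 1.39 times, by cDNA fragmentation and in the rRNA-depleted libraries. Cldn15 was 0.587 and 0.341 times as high. Relative to the median marker ratio, a comparison chosen after the data had been seen, these 5 members kept their direction, with Cldn8 at 26.0 and 19.2 and Cldn15 at 0.384 and 0.403. For 3 members, the direction by cDNA fragmentation turned with this choice. Cldn4 was at 1.41 relative to the sum and 0.921 relative to the median, Cldn7 at 1.14 and 0.745, and Cldn12 at 1.22 and 0.801. In the rRNA-depleted libraries, Cldn4 (0.730 and 0.862) and Cldn7 (0.254 and 0.300) were below 1 and Cldn12 (1.10 and 1.30) above 1 by either measure.

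Reads were also placed by exon block. No read of any library was placed on the first exon block of Cldn2 (chromosome X, 136335367 to 136335549, 183 bases, an exon of the 5' untranslated region), whereas the next block held 5552 reads of small intestine and 11032 of colon by cDNA fragmentation, and 206 and 1195 with rRNA depletion. In the first 200 bases of that next block, 149, 219, 8 and 49 reads were found in the same order of libraries, and the read nearest to its 5' end began at base 2, 11, 8 and 8. A count of 0 on the first block allows up to 0.729, 0.661, 8.05 and 4.71 RPKM, beside 86.4, 156, 35.4 and 120 RPKM on the next block. No window of 35 bases of Cldn2 recurs in the exon reference within 1 mismatch. Among genes with at least 200 reads and a first block of 150 to 250 bases, 22.0%, 19.3%, 25.1% and 20.2% had no read there in the same order of libraries. A second set held genes with such a first block and a read number within 2 times that of Cldn2 in either direction. The minimum of 200 reads was not asked for there, so in the rRNA-depleted small intestine library it also held genes with fewer reads. Its shares were 10.6%, 6.21%, 35.6% and 13.1%, lower where Cldn2 had many reads.

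GENCODE M1, an annotation on mm9, lists 2 more Cldn2 transcripts that start from other exons, at 136337326 to 136337427 and at 136340620 to 136340798, and are joined to the same next exon. These exons lie outside the blocks to which reads had been matched, so reads from them have no place in the deposited files. The 250 bases before the RefSeq start of Cldn2 are shown beside those of Cldn15, whose first block was covered at 353 and 170 RPKM by cDNA fragmentation and at 150 and 82.1 in the rRNA-depleted small intestine and colon libraries. The sequences are from RefSeq (GRCm38.p6) and were found without mismatch in mm9 at the positions given. The RefSeq start of Cldn2 lies 20 bases before its exon block. Capitals mark TATAAA and TTTATG in Cldn2 and GGGCGG in Cldn15, searched on both strands.
Cldn2, chrX:136335097-136335346, plus strand: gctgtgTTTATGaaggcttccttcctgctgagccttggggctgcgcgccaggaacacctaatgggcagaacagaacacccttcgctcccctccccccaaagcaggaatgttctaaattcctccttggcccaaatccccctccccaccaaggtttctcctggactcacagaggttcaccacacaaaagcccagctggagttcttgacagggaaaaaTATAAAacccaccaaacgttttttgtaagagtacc
Cldn15, chr5:137443489-137443738, plus strand: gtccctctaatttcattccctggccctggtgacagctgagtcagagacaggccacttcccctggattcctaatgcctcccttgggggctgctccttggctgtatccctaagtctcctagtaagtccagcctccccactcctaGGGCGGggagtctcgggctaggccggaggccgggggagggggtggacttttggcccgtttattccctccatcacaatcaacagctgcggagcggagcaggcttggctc
Promoter windows of 300 bases, from 250 bases before to 50 after a start, were matched for 8 of the 10 members, in 11 windows. TATAAA was found in the window of Cldn2 only, beside 13.6% of all 32851 promoter windows, and TTTATG likewise, beside 11.9%. GGGCGG was found in 8 of the 11 windows, in at least 1 window of each matched member but Cldn2, beside 35.7% of all windows. CCAAT was found in 4 of the 11 windows, those of Cldn5 and Cldn12 (37.4% of all windows), and GTTAAT in that of Cldn1 (7.10%). These are matches of letters and do not show that a factor binds.

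**Figure D4:**
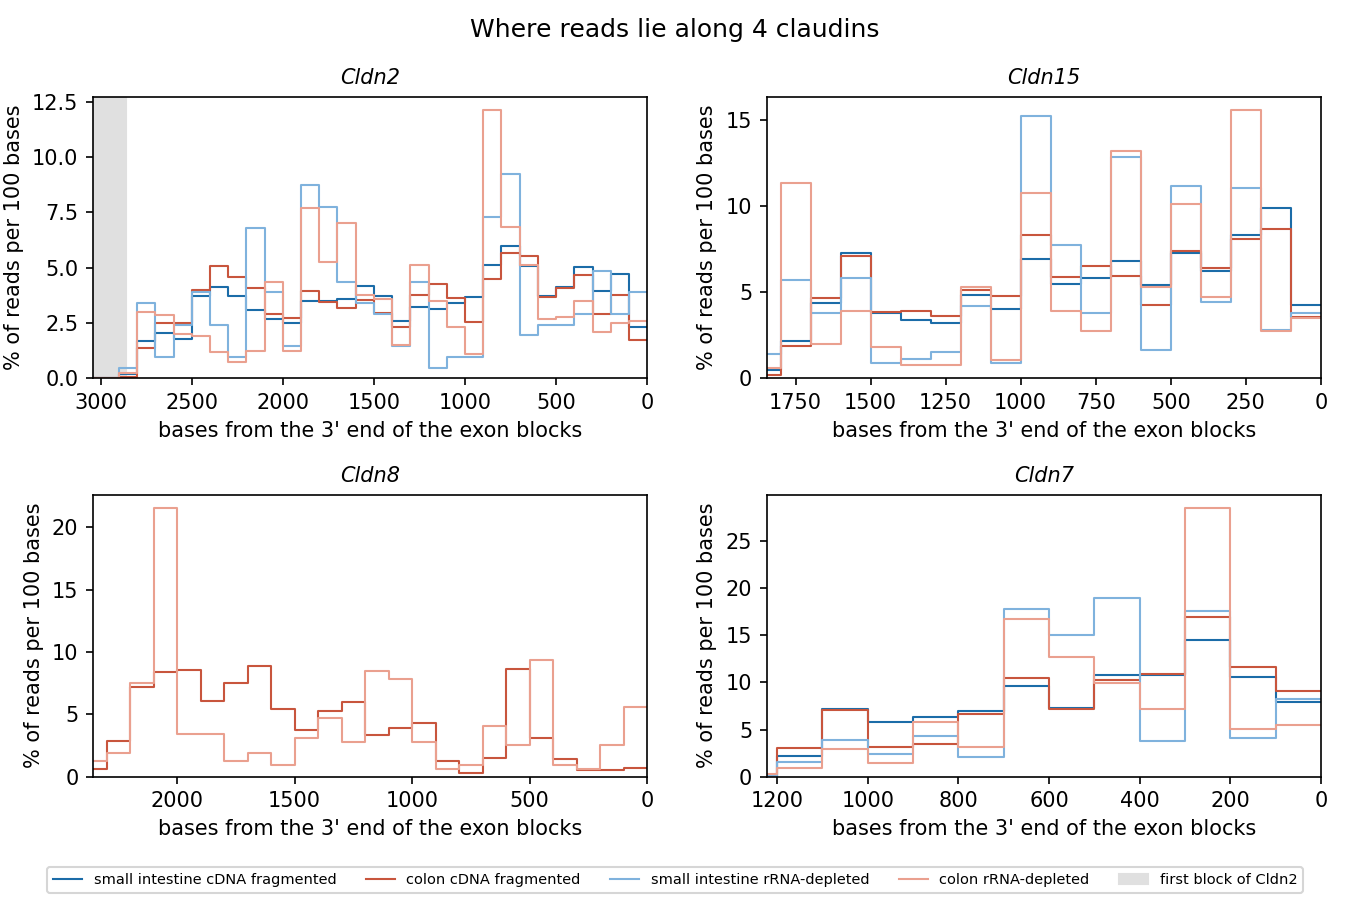
Share of the reads of a gene per 100 bases (y axis, %) against distance from the 3' end of its joined exon blocks (x axis, bases, 5' end at left), for Cldn2, Cldn15, Cldn8 and Cldn7 in the 4 libraries. The grey area in the Cldn2 panel is its first block, which held 0 reads; small intestine libraries are left out for Cldn8, where they had 59 and 8 reads, and the bin at the 5' end is shorter than 100 bases.

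Cldn2, Cldn15 and Cldn7 were covered along most of their length by cDNA fragmentation. By cDNA fragmentation, the 5'-terminal 50% of the bases of Cldn2, Cldn15 and Cldn7 held 39.3%, 39.0% and 36.3% of the reads in small intestine and 43.1%, 41.7% and 31.6% in colon. Reads of the rRNA-depleted libraries were more concentrated in some members. A single bin of 100 bases held 28.5% of the Cldn7 reads and 21.6% of the Cldn8 reads in the rRNA-depleted colon library. For Cldn4, a single bin held 35.7% of its reads in the rRNA-depleted small intestine library and 31.1% in the colon one. For Cldn3, a single bin held 14.5% and 29.0% in the same order. The part of such bins in the levels and ratios was not tested. The Cldn12 level rested on the last of its 4 blocks, which spans 3440 of its 3794 bases. This block held 98.5% to 100% of its reads in the 4 libraries. Of all claudin reads, 50.7% and 51.2% lay on the sense strand by cDNA fragmentation, where strand is lost, and 99.9% in each rRNA-depleted library, beside 98.4% and 98.3% for all genes there.

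Other proteins of the tight junction were taken from a list of 27 genes, all of which had reads in each library. By the 2-fold rule, 5 were higher in colon, where 26.2% of all genes were, and 1 in small intestine, where 9.66% were, by cDNA fragmentation. The counts were 6 (27.9% of all genes) and 7 (12.3%) in the rRNA-depleted libraries. With median-of-ratios scaling, the counts were 2 and 3 by cDNA fragmentation (15.9% and 15.6% of all genes) and 4 and 7 in the rRNA-depleted libraries (18.9% and 17.9%). Their median log2 ratio, colon over small intestine, was 0.16 and 0.47, beside 0.40 for all genes in each protocol. In the same direction in both protocols, 2 genes (Ildr1 and Cgnl1) passed in colon and 1 (Mpp5) in small intestine. With median-of-ratios scaling, 1 (Ildr1) passed in colon and 3 (Mpp5, Inadl and Cldnd1) in small intestine, so the call of Cgnl1 ended. The share of all genes that passed in both protocols was not counted under either scaling. These counts therefore serve to name genes and say nothing about the list as a whole. Ildr1, an angulin of the contacts where 3 cells meet, had 14 and 1242 reads (0.216 and 17.4 RPKM) by cDNA fragmentation and 22 and 1661 (3.76 and 166 RPKM) in the rRNA-depleted libraries, with colon to small intestine ratios of 80.4 (47.8 to 148) and 44.2 (29.1 to 70.7). Ildr1 was thus among the colon-high junction genes with Cldn8. Cgnl1, a cytoplasmic adaptor of junctions, had ratios of 7.01 (4.89 to 10.3) and 2.43 (1.46 to 4.25). Mpp5, a scaffold of the polarity complex at the junction, was 2.72-fold and 5.10-fold higher in small intestine. Ocln and Tjp1, core components of the junction, passed in neither protocol, with ratios of 0.671 and 1.40 for Ocln. The level of Tjp1 was 5.28 RPKM in either tissue by cDNA fragmentation, and 23.9 and 23.2 in the rRNA-depleted libraries.

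Of 16 further genes named as claudins in the annotation, 3 had at least 20 reads in any library. Cldn10 had 11 and 44 reads by cDNA fragmentation (ratio 3.63, 1.84 to 7.79) and 1 and 2 in the rRNA-depleted libraries. Cldn19 had 71 and 81 reads by cDNA fragmentation and 0 in each rRNA-depleted library. The gene named Cldn25 there is Cldnd1 of the junction list, and it had 111 and 60.0 RPKM by cDNA fragmentation and 32.0 and 8.92 in the rRNA-depleted libraries. Cldn16, Cldn24, Cldn26 and Cldn27 had 0 reads in all 4 libraries.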

How the data were processed

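The authors deposited read placements, in which signed position numbers and the number of color mismatches are given per read, beside tables of exon blocks and junctions and report files with read counts. Per the file headers and the methods, 35 colors per SOLiD read had been matched by the authors against RefSeq exons and junctions of mm9 with up to 3 mismatches. All placements used were unique ones. The study names BioScope for its matching to the genome, whereas the tool behind these placements is not given in the sources used here. The totals of reads and of start points were the same as in the deposited reports.

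Reads were counted on the block that holds their first base, with 3 bases of tolerance, and scaled to RPKM. Genes were built from the junction table and named by position with GENCODE M1 (20817 of 21000). A gene was present above 0.01 RPKM with 2 or more start points. Intervals cover 95%, and 3 reads per library served as the floor where none was found. The members and lists were chosen with earlier results of these data known. All 10 members were named, other claudins from 20 reads in any library, and junction genes past the 2-fold rule in the same direction in both protocols; Ocln and Tjp1 were named after their values had been seen. Ratio intervals and 2-fold calls were also run on simulated counts that held counting error only, which cannot show how they fare under other error. Alternatives were fewer mismatches, start points, median-of-ratios scaling, sense reads, junction reads, the last block, thinning, other penalties and minimum reads. Python 3.11.15, numpy 2.4.6, scipy 1.17.1, pandas 2.3.3 and pysam 0.24.0 were used.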

Additional observations from a re-analysis of the deposited data

Results flagged for a closer look

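Reads on exon-exon junctions were left out of the levels and ratios of the report, and antisense reads of the stranded libraries, which are part of the read counts there, were not compared on their own. Some of these lay above the 3 reads that a count of 0 allows. Cldn7 had 56 junction reads in the small intestine and 39 in the colon cDNA fragmented library. Cldn15 had 64 and 43 in the same order. In the colon rRNA-depleted library, Cldn3 had 4 antisense reads beside 826 sense reads.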

How the results depend on the processing

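Each group was 1 library, so differences between mice or preparations could not be estimated, and the lower depth of the rRNA-depleted libraries limits Cldn1 and Cldn5. No paired analysis was possible because the labels give no replicate numbers that pair libraries. A fit of tissue with protocol as a block, which would take the difference between protocols as replicate error, was not made. Median-of-ratios scaling raises every small intestine value and lowers every colon value of a protocol by the same factor. With it, the median ratio of the members was 1.18 by cDNA fragmentation and 1.76 in the rRNA-depleted libraries (over all 10 members, Cldn1 counted as above the median, as in the 2.23 of the report; over the 9 others 1.58 against 2.01), the 2-fold rule, for which this scaling was added after the data had been seen, gave 2 and 3 members higher in colon, and the 3-fold rule gave 1 member higher in colon and 1 in small intestine in the rRNA-depleted libraries. Junction genes higher in small intestine by the 3-fold rule were 1 in place of 0 by cDNA fragmentation (3.55% of all genes) and 6 in place of 3 in the rRNA-depleted libraries (5.04%), and by the 2-fold rule 2 were higher in colon and 3 in small intestine by cDNA fragmentation. Start points in place of reads gave median ratios of 1.27 and 1.73 (1.46 over 9 members). With at most 1 mismatch, the medians were 1.81 and 2.59 (2.27 over 9 members), and the sense share of the cDNA fragmented colon library was 51.9%. Sense reads alone gave 1.84 by cDNA fragmentation, and a penalty of 0.1 RPKM gave 2 members (Cldn8 and Cldn23) by the 3-fold rule in colon by cDNA fragmentation. The cause of these shifts was not tested. By cDNA fragmentation, the ratio crossed 1 for Cldn12 (0.982 with at most 1 mismatch, 0.780 with median-of-ratios scaling, both against 1.03), for Cldn4 with median-of-ratios scaling (0.897) and for Cldn7 with at most 1 mismatch (1.04) and on the last block (1.08). In the rRNA-depleted libraries, it did so for Cldn4 with median-of-ratios scaling (0.830) and start points (0.881). Over all alternatives, 61 summary values and 104 single-gene ratios stayed within set limits. These limits were counting error or, for a median ratio, 10% and, for a count, 1.5 times. Another 17 summary values and 26 single-gene ratios moved by more. The 3 single-gene ratios counted as reversed were those of Cldn7 and Cldn4 by cDNA fragmentation given above. Neither gene had passed a fold rule in that protocol. Moves of single-gene ratios by over 1.5 times stand beside the results in the report, and all but that of Cldn5 came from start points. Cldn1 had no ratio in the rRNA-depleted libraries under any setting.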

Other observations

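The protocols gave different levels of some claudins in the same tissue. The level in the rRNA-depleted library relative to the cDNA fragmented one was 3.03 (2.69 to 3.41) for Cldn4 in small intestine and 2.69 (2.45 to 2.95) in colon, and 0.437 (0.407 to 0.470) and 0.434 (0.401 to 0.470) for Cldn15, beside medians over all genes of 1.26 and 1.43. For Cldn7, this value was 1.05 (0.984 to 1.11) in small intestine and 0.399 (0.370 to 0.431) in colon, and for Cldn2 0.410 (0.355 to 0.471) and 0.772 (0.727 to 0.820). Cldn4 and Cldn15 thus shifted alike in both tissues, whereas the intervals of Cldn7 and of Cldn2 did not overlap between tissues, nor did those of Cldn12, at 1.04 (0.837 to 1.28) and 1.60 (1.40 to 1.83).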
